A study of Rattus norvegicus with 13 samples.

Results

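The mitochondrial protein import translocases described here are 10 genes, Tomm70a, Tomm20, Tomm22, Tomm40, Tomm34, Timm8b, Timm17a, Timm23, Timm44 and Timm50, taken by their symbol on a rat gene expression array. Under these symbols the array held 16 of its 45598 gene probes, which represent 9 of the 10 genes, and 14 of the 16 passed the filter on dim probes that left 25717 probes to test. RNA came from the thyroid of male Wistar rats at 51 postnatal days. The KI-treated group (6 arrays) were offspring of dams that had received 1 mg/kg of potassium iodide (KI) per day for 8 days from gestational day 9, and the control group (7 arrays) were offspring of dams given saline. Each array was taken as 1 animal. The litters are not named, so animals that share a dam cannot be told apart from independent ones, and the standard errors measure the spread between these arrays. Tomm70a was chosen by its presence among the genes that the study listed as different between the groups in these same animals, and the other 9 were added as members of the same machinery. The differences between the groups are therefore given as a description, for the 9 genes with a probe. Counts from the fit across all probes are printed only beside the share or count of all probes.

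Most mitochondrial proteins are made in the cytosol and enter the organelle through translocases. The TOM complex of the outer membrane consists of receptors (Tomm20, Tomm22 and Tomm70a) and the channel Tomm40, and Tomm34 is a cytosolic partner that binds precursors and chaperones. The TIM23 complex of the inner membrane passes on precursors with a presequence through Timm23 and Timm17a, with Timm50 as the receptor on the intermembrane side and Timm44 as the anchor of the import motor. Timm8b belongs to the small chaperones that carry hydrophobic precursors across the intermembrane space. The thyroid follicle depends on mitochondria for the energy that iodide uptake and hormone synthesis use.

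The probes are 60 bases long and differ in where they lie in a transcript. Coordinates are those of the array design, on the rat build rn4, and probe positions are counted in bases from the start of the transcript. Tomm70a had 4 probes above background on all 13 arrays, all on the minus strand of chromosome 11. The probe at base 1714 (chr11:44306090-44306149) lies in the coding sequence, and the probe at base 1910 (chr11:44302829-44302888) ends with the stop codon. The start of the one is 196 bases from the start of the other in the transcript and 3261 bases in the genome, so at least 1 intron separates them. The probes at base 2162 (chr11:44302577-44302636) and at base 3630 of a longer cDNA (chr11:44301153-44301212) lie past the stop codon, in the 3′ untranslated region. Both coding probes are shown because they gave different values although they are close neighbours in the transcript. Capitals mark the stop codon. Read in the frame of that codon, neither holds an earlier stop.
Tomm70a, base 1714: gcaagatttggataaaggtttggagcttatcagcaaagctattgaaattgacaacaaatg
Tomm70a, base 1910: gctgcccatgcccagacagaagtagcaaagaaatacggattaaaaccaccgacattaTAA

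Timm23 and Tomm20 had 2 probes each, and in both genes the first of them crosses a splice junction, since its 60 bases extend over a longer stretch of the genome. The Timm23 probe at base 587 extends over 10982 bases (chr16:7663655-7674636, minus strand), and the Tomm20 probe at base 478 over 1315 bases (chr19:56851292-56852606, minus strand). They are shown because each is the partner of a probe closer to the 3′ end, at base 977 in Timm23 (chr16:7663265-7663324) and at base 615 in Tomm20 (chr19:56851154-56851213).
Timm23, base 587: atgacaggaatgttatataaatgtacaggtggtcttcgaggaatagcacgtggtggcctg
Tomm20, base 478: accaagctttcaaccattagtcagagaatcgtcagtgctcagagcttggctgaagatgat

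The remaining genes had 1 probe each. They were Tomm22 (base 949, chr7:117914881-117914940, plus strand), Tomm34 (base 1674, chr3:154995736-154995795, minus strand), Tomm40 (base 303, chr1:79018861-79019454, minus strand, across a junction), Timm17a (base 619, chr13:48297735-48297794, minus strand), Timm8b (base 425, chr8:53966012-53966071, plus strand) and Timm44 (base 795, chr12:1524003-1524062, plus strand). Timm50 had no probe under its name. A probe described on the array as a locus similar to Timm50, which the RefSeq gene table (GRCr8) lists as Timm50, lies outside the rule and is given separately. Whether any probe also binds the transcript of a related gene or pseudogene was not tested.

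Each value is the log2 signal of the probe with the 75th percentile of its array subtracted, called the relative level, so a relative level of 0 is that percentile. Between 34840 and 41050 of 58717 gene spots per array were well above background. Controls 4 and 6 stood apart from the other 11 arrays in brightness and in the balance between the ends of transcripts. The 75th percentile that was subtracted lay at an intensity of 290 in control 4 and 242 in control 6, against 358 to 547 on the other 11 arrays. The part of this in their relative levels was not tested. For 1329 RefSeq transcripts outside the members with probes at least 150 bases apart, the probe nearest the 3′ end (distal) was compared with that nearest the 5′ end (proximal), and the median of this gap after centring on each transcript's mean was taken as an index of the array. The index was 0.55 in control 4 and 0.35 in control 6, between -0.14 and 0.08 in the other 5 controls, and between -0.14 and -0.06 in the KI-treated group. The mean difference between the groups was -0.16, which did not pass an exact two-sided permutation test over 1716 splits of the arrays (p = 0.255). Since the difference rested on controls 4 and 6, this test had little room for a small p. It cannot decide whether the index was balanced between the groups. At an unadjusted p under 0.05, 8.95% of the proximal probes of these transcripts and 4.51% of their distal probes were higher in the KI-treated group, and 5.12% and 4.44% were lower.

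The tissue label was checked against markers. All 9 thyroid follicular markers were above background on all 13 arrays, led by thyroglobulin (Tg, relative level 10.02 ± 0.13 over the 6 KI-treated and 10.28 ± 0.23 over the 7 control arrays, SD) and Foxe1 (5.93 ± 0.14 and 6.14 ± 0.42). Their summed level on the linear scale, as multiples of the 75th percentile, was 1181 to 1341 in the KI-treated group and 1238 to 1859 in the control group. Other cell types were present too. The skeletal muscle list (10 genes, led by Tnni2 and Mylpf) summed to 6.43 to 113 and 27.9 to 219 in the respective groups, white adipocytes (5 genes, led by Cfd and Adipoq) to 19.96 to 48.2 and 42.8 to 66.2, and brown adipocytes (4 genes, led by Ucp1 and Cidea) to 41.5 to 137 and 54.2 to 131. Parathyroid (3 genes, led by Pth and Casr) summed to 339.6 to 458 and 397 to 665, C cells (2 genes, Calca and Chga) to 160.3 to 269 and 99.4 to 263, and blood (Hbb and Alas2) to 6.41 to 11.5 and 4.07 to 8.32. Of the lymphocyte list, the 3 tested markers Cd3g (named outside the rule), Cd4 and Ptprc summed to 1.99 to 11.9 in the KI-treated group and 2.27 to 3.77 in the control group, and KI-treated array 1 stood apart. That array held the 11.9, against at most 2.32 on the other 5 KI-treated arrays, with Cd3g at 2.96 against -3.70 or lower on the other 12 arrays. Myh2 of the muscle list was well above background on 5 arrays. The ranges of the groups overlapped for every list given here. The part of these cell types in the values below was not tested, and in whole tissue fewer cells of a type and less RNA per cell cannot be told apart.

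Tomm70a, the receptor for precursors delivered by cytosolic chaperones, gave a different picture at base 1714 than at its 3 other probes. At base 1714 the relative level in the KI-treated group had a lowest, median and highest value of -0.28, -0.18 and -0.09, against -0.63, -0.55 and -0.28 in the control group. The groups touched at 1 point: KI-treated array 6 lay 0.000342 below control 2, and every other KI-treated array was above every control. The means were -0.19 ± 0.08 (SD, n = 6) and -0.51 ± 0.14 (SD, n = 7), a difference of 0.31 (SE 0.10), or 1.24-fold higher in the KI-treated group. Within the 5 slides that held both groups the KI-treated mean was the higher in 5, by 0.10 to 0.47. On 2 of these slides, the only ones of scan session 1, the single control was control 4 or control 6, with differences of 0.11 and 0.34.

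At base 1910 the KI-treated values had a lowest, median and highest of 1.39, 1.43 and 1.53 and the controls of 1.24, 1.39 and 1.90. At base 2162 the respective values were 1.30, 1.49 and 1.58 against 1.18, 1.43 and 2.09, and at base 3630, the brightest probe, 2.04, 2.14 and 2.33 against 1.95, 2.18 and 2.65. At these 3 probes the groups overlapped, and controls 4 and 6 were the highest arrays. The differences were -0.04 (SE 0.12) at base 1910, -0.10 (SE 0.15) at base 2162 and -0.06 (SE 0.13) at base 3630.

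**Figure D1:**
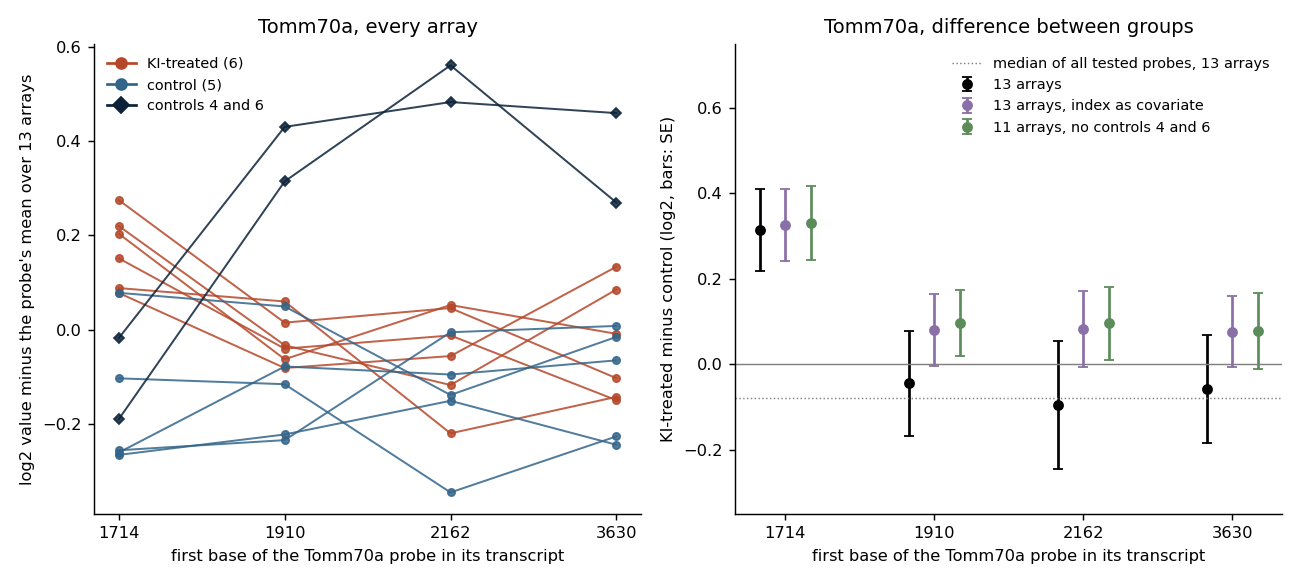
Tomm70a at its 4 probes above background on all arrays, ordered by position (horizontal axes, not to scale). Left, each line is 1 array, as log2 value minus the probe's mean over 13 arrays, and controls 4 and 6 (diamonds) rise from base 1714 to the other probes. Right, KI-treated minus control in log2 with its standard error, 0.31 at base 1714 and between -0.10 and -0.04 at the others with all 13 arrays.

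Without controls 4 and 6, the difference at base 1714 was 0.33 (SE 0.09), and the other 3 probes gave 0.10 at base 1910, 0.10 at base 2162 and 0.08 at base 3630. With the index as a covariate in the fit of 13 arrays, the respective differences were 0.33, 0.08, 0.08 and 0.08. The value at base 1714 was thus as large without these arrays, and the sign of the other 3 turned. Under quantile normalization, normexp correction, the deposited values, the blocks and array weights, base 1714 stayed between 0.24 and 0.38, and it was 0.39 with the percentile taken over spots. Without KI-treated array 1, it was 0.29. 2 further Tomm70a probes, designed to predicted transcripts, were well above background on 1 array (base 2371) and on 0 arrays (base 3175), so they have no level to compare.

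The probes of Tomm70a varied together only in part. After subtraction of the group means, the Pearson correlation over the 13 arrays was 0.777 between bases 1910 and 2162, 0.452 between bases 1714 and 1910, and 0.137 between bases 1714 and 2162. Without controls 4 and 6 these were -0.306, 0.655 and -0.0317 over 11 arrays. The correlation of the neighbours at bases 1910 and 2162 thus rested on controls 4 and 6. These are descriptions over arrays that share their processing and the group design.

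The gap between the distal and the proximal probe of one gene showed the same arrays apart in 3 members. In Tomm70a the value at base 2162 exceeded that at base 1714 by 1.66 ± 0.09 on the 6 KI-treated and by 2.07 ± 0.36 on the 7 control arrays (SD), with 2.39 in control 4 and 2.64 in control 6. In Timm23 the gap was 1.74 ± 0.08 and 2.17 ± 0.43, with 2.81 in control 4 and 2.74 in control 6. In Tomm20, whose probes are 137 bases apart, it was 1.96 ± 0.06 and 2.11 ± 0.15, with 2.37 and 2.28. In all 3 genes controls 4 and 6 had the widest gaps of the 13 arrays. The gap correlated with the index at r = 0.814 for Tomm70a, 0.939 for Timm23 and 0.926 for Tomm20 over 13 arrays, and at 0.411, 0.445 and 0.489 over the 11 arrays without controls 4 and 6. Without those 2 controls the gap was still narrower in the KI-treated group, by 0.23 in Tomm70a (log2 difference -0.23), by 0.18 in Timm23 (-0.18) and by 0.07 in Tomm20 (-0.07).

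**Figure D2:**
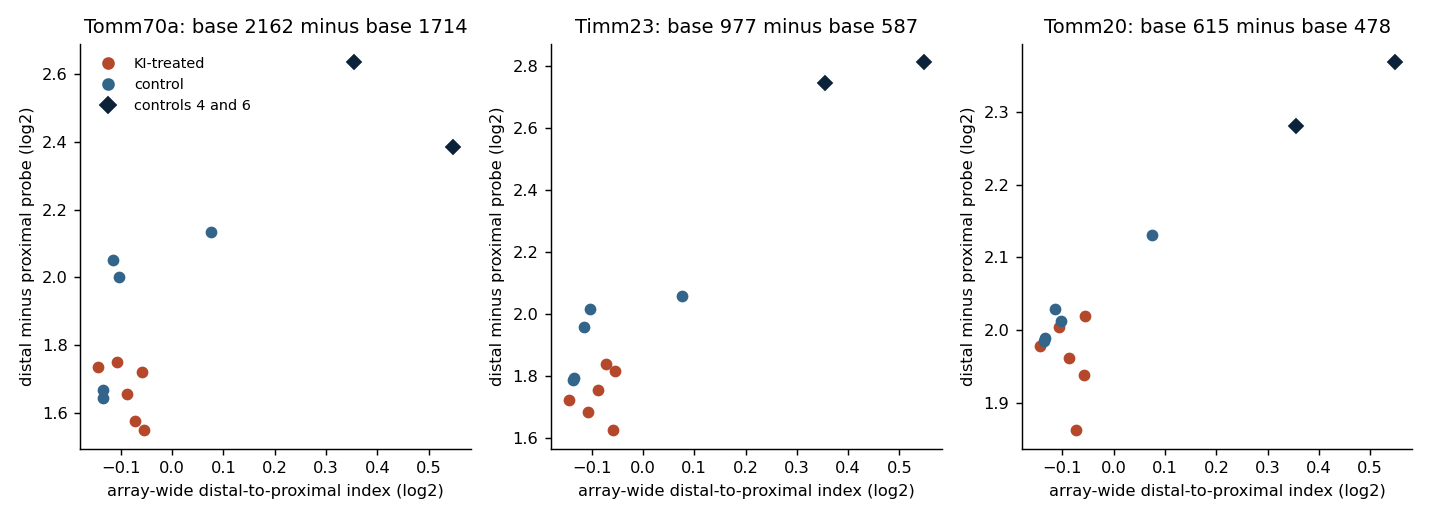
Gap between the distal and the proximal probe (vertical axes, log2) of Tomm70a, Timm23 and Tomm20 against the array-wide distal-to-proximal index of other genes (horizontal axes, log2), 1 point per array. Controls 4 and 6 (diamonds, index 0.55 and 0.35) have the widest gaps in each panel, and the other 11 arrays lie between -0.14 and 0.08 on the index.

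Among the other TOM genes, Tomm20, the presequence receptor, hardly moved at its proximal probe. At base 478 the KI-treated values ran from 3.20 over a median of 3.31 to 3.36 and the controls from 3.22 over 3.27 to 3.39, a difference of -0.01 (SE 0.08). At base 615 they ran from 5.16 over 5.27 to 5.36 and from 5.23 over 5.36 to 5.75, a difference of -0.16 (SE 0.11), or -0.05 without controls 4 and 6. Controls 4 and 6 were the top arrays at both.

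Tomm22, the central receptor that joins the others to the channel, was even across the KI-treated arrays and spread across the controls. Controls 4 and 6 were the highest, and control 7 came next at 4.61, also above every KI-treated array. The values ran from 4.21 over 4.28 to 4.39 in the KI-treated group and from 4.15 over 4.35 to 5.0 in the control group, where controls 4 and 6 were at 4.98 and 5.0. The difference of -0.22 (SE 0.15) became -0.03 without those 2. Tomm34 followed the same course, with 2.45, 2.67 and 2.83 against 2.48, 2.74 and 3.35 and a difference of -0.17 (SE 0.16), or 0.02 without controls 4 and 6.

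Tomm40, the channel, was measured by a probe near the 5′ end, at base 303, and went the other way. The KI-treated values ran from -0.94 over -0.27 to 0.10 and the controls from -0.98 over -0.55 to -0.34. KI-treated arrays 2 and 3 lay among the low controls and the 4 others near or above the highest control, so the KI-treated group was the more scattered (SD 0.44 against 0.25). The difference was 0.25 (SE 0.19), and 0.17 without controls 4 and 6.

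In the inner membrane, Timm23, the channel of the presequence translocase, repeated the split between probes. At base 587 the KI-treated values ran from 2.40 over 2.52 to 2.76 and the controls from 2.01 over 2.27 to 2.58. Every KI-treated array was above the control median, and controls 6 and 4 were the lowest arrays, at 2.01 and 2.06. The difference was 0.31 (SE 0.12), with the KI-treated mean higher in 5 of 5 slides by 0.10 to 0.49 (0.37 and 0.39 on the 2 slides whose single control was control 4 or 6), and it was 0.22 without controls 4 and 6. At base 977 the values ran from 4.02 over 4.31 to 4.46 and from 4.10 over 4.33 to 4.87, controls 4 and 6 were the highest arrays, and the difference was -0.12 (SE 0.14), or 0.04 without them.

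Timm17a, the partner of Timm23 in that channel, had KI-treated values from 3.59 over 3.86 to 4.09 and controls from 3.66 over 3.93 to 4.40, a difference of -0.14 (SE 0.14), or 0.01 without controls 4 and 6. It followed the distal Timm23 probe from array to array. Their correlation after subtraction of the group means was 0.974 over 13 arrays and 0.944 over the 11 without controls 4 and 6, the highest of the 78 pairs of member probes in both. Timm8b, the small chaperone, had values from 3.44 over 3.67 to 3.84 and from 3.33 over 3.82 to 4.31 and a difference of -0.21 (SE 0.16), or -0.04 without controls 4 and 6.

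Timm44, the anchor of the import motor, was close to background. Its probe was well above background on 5 of 6 KI-treated arrays and on 1 of 7 controls, so it passed the filter through the group in which it was high. The relative levels ran from -4.09 over -3.93 to -3.67 in the KI-treated group and from -5.68 over -4.44 to -3.78 in the control group, a difference of 0.64 (SE 0.24). After normexp background correction it was -0.01 with the 75th percentile and 0.21 with quantile normalization. The probe for the locus similar to Timm50, above background on all 13 arrays, had KI-treated values from -0.77 over -0.59 to -0.38 and controls from -1.69 over -0.91 to -0.71. Controls 4 and 6 were the lowest arrays, at -1.69 and -1.58, and the difference of 0.46 (SE 0.17) became 0.23 without them.

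**Figure D3:**
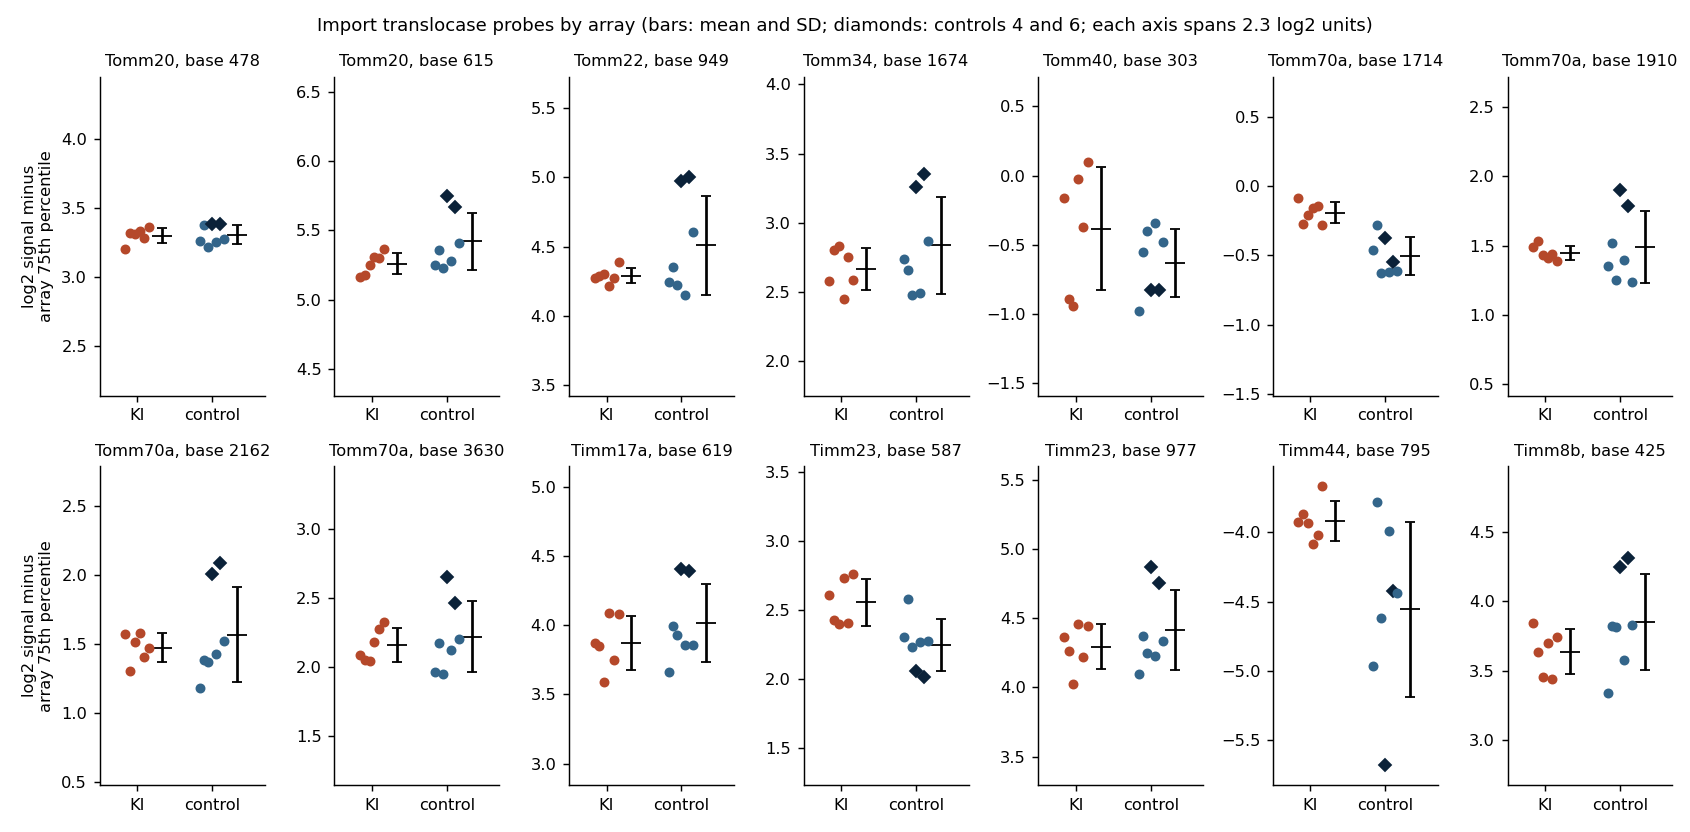
Relative level (vertical axes, log2 of the signal minus the array's 75th percentile, each spanning 2.3 units) of the 14 member probes that passed the filter, in 6 KI-treated and 7 control arrays, with mean and SD as bars. Controls 4 and 6 (diamonds) are the 2 highest arrays at 10 probes and the 2 lowest at Timm23 base 587, and the KI-treated arrays lie above all but 1 of the controls at Tomm70a base 1714.

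Counted over the 14 probes, Timm44 included, 4 had the higher mean in the KI-treated group and 10 the lower, and the differences ran from -0.22 (Tomm22) to 0.64 (Timm44). Their median was -0.08, and the median of all 25717 tested probes was -0.08 as well. Without controls 4 and 6 the medians were 0.06 for the member probes and -0.01 for all probes. Without KI-treated array 1 the median of the member probes was -0.08, with 0.30 at Timm23 base 587, 0.20 at Tomm40 and 0.64 at Timm44. Controls 4 and 6 were the 2 highest arrays at 10 of the 14 probes, against 26.5% of all tested probes, and the 2 lowest at 1, against 14.6%.

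In limma's fit across all probes, 0 of 25717 were called after Benjamini-Hochberg adjustment (0%). At an unadjusted p under 0.05, limma called 12.7% of all tested probes, 5.71% as higher and 7.01% as lower in the KI-treated group, and the methods' t-test called 3142 probes and 0 after adjustment. Of the 14 member probes, 3 were past this unadjusted limit, all higher (Tomm70a base 1714, Timm23 base 587 and Timm44). With the index as a covariate 2 of 14 were past it against 8.85% of all probes, and without controls 4 and 6 it was 2 of 14 against 9.38%. Member probes with no overlap between the groups numbered 0, against 0.587% of all probes. Since Tomm70a was chosen through this contrast and Timm44 entered through the KI-treated group, nothing is read from these counts.

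The members varied together across arrays to a degree that depended on controls 4 and 6. Over the 13 member probes above background on all arrays, the median correlation of the 78 pairs after subtraction of the group means was 0.623 with 13 arrays and 0.277 with 11. Pairs above 0.9 numbered 6 and 1. The 78 pairs include pairs of probes of the same gene. The median over pairs of all tested probes was not computed, so these values are not read as particular to the members. Controls 4 and 6 were the 2 highest arrays on 26.5% of all tested probes. Correlation with the index was highest for Tomm22 (0.938) and Tomm20 base 615 (0.899), was 0.138 for Tomm70a base 1714, and was lowest for Timm23 base 587 (-0.657). Tomm20 base 615 was also among the 5 genes most like the brightest Tomm70a probe out of 25650 probes, at r = 0.960. The other 4 were Hook1 (0.962), an unnamed Ensembl transcript (0.957), Rhoq (0.957) and Yipf6 (0.946). Without controls 4 and 6 these 5 correlated with the Tomm70a probe at 0.835 to 0.901 over 11 arrays.

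The rest of the import pathway was read from lists of 44 genes outside the members, of which 39 had a probe and 38 were tested, each by its brightest probe. None passed after adjustment. At an unadjusted p under 0.05, 2 of 38 were higher and 0 lower, against 5.71% and 7.01% of all probes. Over all 62 tested probes of these genes the counts were 3 higher and 3 lower, and no direction is read from these small counts. The median difference over the brightest probes was -0.13 against -0.08 over all tested probes. Without controls 4 and 6 the median was 0.01. One gene of these lists, Hspa9, the motor chaperone, was also in the study's own list of changed genes and is no independent entry.

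By role, the 2 tested genes among other TOM subunits were Tomm40l, a paralogue of the channel, and Tomm7, a small stabilising subunit. Tomm40l was higher in the KI-treated group by 0.94 (SE 0.33, unadjusted p = 0.0114, adjusted p = 0.354 in limma), with 6 of 6 KI-treated arrays above the control median, but its second probe gave -0.06 and the value was 0.46 without controls 4 and 6. Tomm7 differed by -0.24 (SE 0.12, adjusted p = 0.406). Of 9 other TIM23 and motor genes, 0 passed the unadjusted limit at the brightest probe, against 12.7% of all probes. Over their 13 tested probes, 0 were higher and 1 lower at that limit, against 5.71% and 7.01% of all probes. The 2 genes with the smallest p were Grpel1, the nucleotide exchange factor of the motor, and Pam16, a regulatory subunit. Grpel1 was at 0.49 (SE 0.26, adjusted p = 0.415) and 0.14 without controls 4 and 6. Pam16 was at -0.29 (SE 0.17, adjusted p = 0.447) and -0.06 without them, and its second probe was at -0.41 with 13 arrays.

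The share of all probes past the unadjusted limit, 12.7%, stands beside each count by brightest probe here. Over the 9 tested probes of the TIM22 complex and the small chaperones, 1 was higher and 1 lower at that limit, against 5.71% and 7.01% of all probes. By brightest probe, 1 of 7 tested genes was past it. Agk, a lipid kinase that is also a TIM22 subunit, was higher by 0.35 (SE 0.12, unadjusted p = 0.00956, adjusted p = 0.353), with relative levels of -1.40 ± 0.15 over the 6 KI-treated and -1.75 ± 0.20 over the 7 control arrays (SD), and by 0.25 without controls 4 and 6. Timm10b differed by -0.40 (SE 0.19, adjusted p = 0.399) and its second probe by -0.66. Among 8 genes of the disulfide relay, the SAM complex and OXA, 0 passed at the brightest probe. Over their 13 tested probes, 1 was higher and 0 lower at that limit. Samm50, the barrel insertase, was at -0.19 and Chchd4, the oxidoreductase of the relay, at 0.17, or -0.03 and 0.06 without controls 4 and 6. The other Chchd4 probes were at 0.35 and 0.38 with 13 arrays. Among 6 presequence processing genes 0 passed, and the subunits of the processing peptidase, Pmpca and Pmpcb, were at -0.22 and -0.18, or 0.00 for each without controls 4 and 6. Among 6 cytosolic chaperones 0 passed at the brightest probe, and over their 13 tested probes 0 were higher and 1 lower at that limit. Hspa8 and Hsp90ab1, which hand precursors to Tomm70a, were at -0.30 (SE 0.14, adjusted p = 0.395) and -0.33 (SE 0.20, adjusted p = 0.454), and the KI-treated arrays stayed below the control median in 6 of 6 for Hspa8. The 3 other Hspa8 probes ran from -0.29 to 0.32 and the second Hsp90ab1 probe was at 0.03. The brightest probes were at -0.15 and -0.39 without controls 4 and 6.

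Mitophagy and mitochondrial content were read beside them. Over the 22 tested probes of 9 mitophagy genes, 3 were higher and 0 lower at the unadjusted limit, against 5.71% and 7.01% of all probes. By brightest probe, 1 gene was past this limit, against 12.7% of all probes. It was Becn1, a core autophagy factor, at 0.38 (SE 0.13, unadjusted p = 0.00919, adjusted p = 0.353), or 0.25 without controls 4 and 6. Map1lc3b, which coats autophagosomes, was at -0.28, and its 4 other probes ranged from -0.30 to 0.32. Of 15 content genes, 2 were higher and 1 lower at that limit, against 5.71% and 7.01% of all probes. Atp5b, the catalytic subunit of ATP synthase, was at 0.63 (SE 0.26, adjusted p = 0.374) and Uqcrc1, a complex III core subunit, at 0.30 (SE 0.12, adjusted p = 0.365). Without controls 4 and 6 they were at 0.28 and 0.21. The lower gene, named outside the rule, was Cox4i1, a subunit of complex IV, at -0.33 (adjusted p = 0.387). The medians of both lists, -0.17 for each with 13 arrays, were 0.01 for mitophagy and 0.03 for content without these controls.

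**Figure D4:**
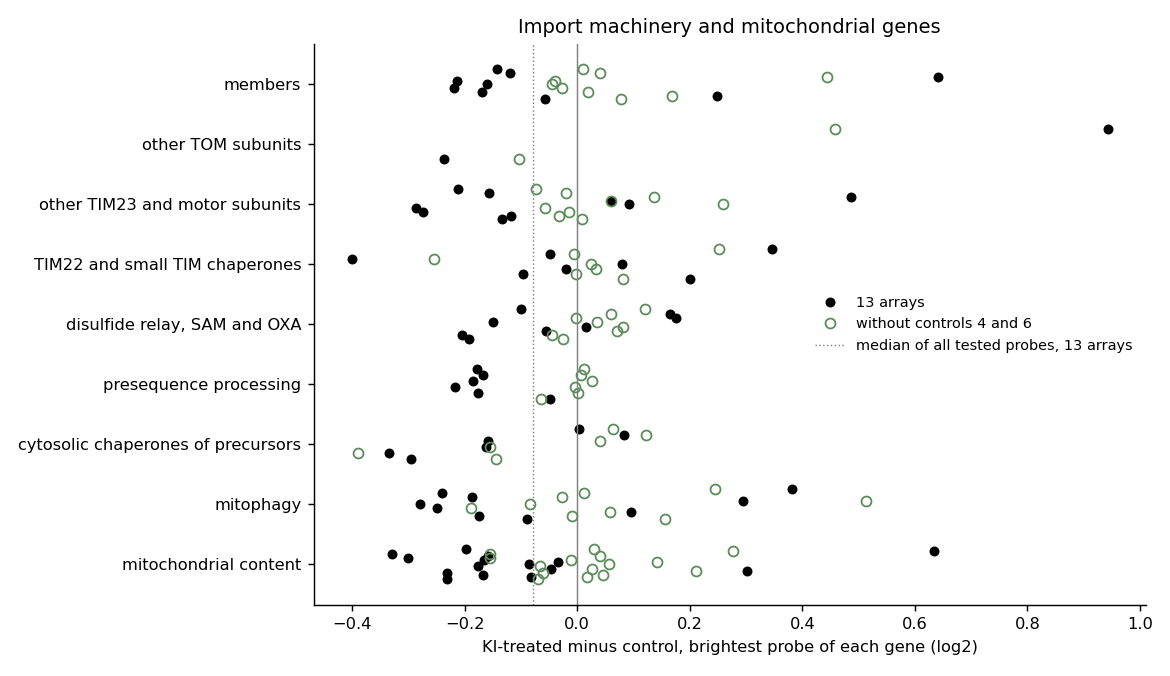
KI-treated minus control (horizontal axis, log2) for the brightest probe of every tested gene in the member list and 8 further lists (vertical axis), with all 13 arrays (filled) and without controls 4 and 6 (open). The dotted line is the median of all tested probes with 13 arrays, -0.08, and 57 of the 71 genes lie closer to 0 without those controls. The share over all tested probes was not computed, and their median was -0.01 without those controls.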

How the data were processed

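Each one-colour Agilent array had its own scanner file. Per the file headers, Agilent Feature Extraction (version 10.7.3.1) made the deposited spot intensities, which are background-subtracted and detrended but not normalized across arrays. The authors' separate value table holds log2 values and served as an alternative; its normalization is not given in the sources used here. Deposited flags (other: 0 or 1 per spot) marked outliers and spots well above background. Surrogate values replace low signals, so low levels are uncertain.

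Control and outlier spots were dropped, spots of one probe averaged and, on the log2 scale, each array's 75th percentile subtracted. Probes flagged as well above background on 6 or more arrays were tested with limma (version 3.58.1, R 4.3.3; lmFit, eBayes, Benjamini-Hochberg, threshold 0.05). The fit was tested on simulated data. A gene outside the members is represented by its brightest probe. Named were all member probes, the 2 genes of smallest p per list, the 5 genes most like the brightest Tomm70a probe and the 2 brightest markers per cell type given; Hspa9 was named outside this rule. The members and lists were chosen with earlier results of these data known. The index and the fits that use it, the fits without controls 4 and 6 and the percentile over spots were chosen after seeing the data. Alternatives were other normalizations, filters, slide, scan session or replicate number as a block, array weights, a pooled-variance t-test and leaving out each array. The paper's Results name a t-test and its Methods name limma. Precision is limited by the number of arrays. One marker gene is not reported here.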

Additional observations from a re-analysis of the deposited data

How the results depend on the processing

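Leaving out each array in turn kept the signs of Tomm70a base 1714 (0.29 to 0.35), Timm23 base 587 (0.27 to 0.36) and Tomm40 (0.15 to 0.36), and these 3 also stayed above 0 under all 13 other settings. Tomm22 and Timm8b stayed below 0 throughout. Tomm70a was chosen through this contrast, all settings reuse the same arrays, and a change of filter leaves a probe's value as it was. The kept signs are therefore no test of the differences. The Timm44 value turned to -0.01 under normexp correction with the 75th percentile. Tomm20 base 478 moved to 0.12 under quantile normalization, 0.11 under normexp with quantile, 0.10 in the deposited values and 0.07 with the percentile over spots, and Tomm20 base 615 to 0.00 under quantile normalization. The median over the member probes ran from -0.11 (slide as a block) to 0.06, and -0.13 to -0.01 when leaving out each array. The difference in the Tomm70a gap between the groups (-0.41) ran from -0.48 to -0.32 when leaving out each array. The median of all probes moved from -0.08 to -0.01 under quantile normalization and to 0.00 with the percentile over spots.

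Over all probes, 0 were called after adjustment except 55 with array weights, 1 without control 1 and 1 without control 2 (range 0 to 1 when leaving out each array). At an unadjusted p under 0.05 the count of 3271 became 5120 with scan session as a block, and ran from 2364 to 4598 when leaving out each array. The count of import genes past that limit was 2 of 38, against 3271 of 25717 probes. It was 4 with the filter on all 13 arrays (2852 of 20754 probes), 7 with slide as a block (3984 of 25717) and 8 with scan session as a block (5120 of 25717). It was 4 with the pooled-variance t-test (3142 of 25717). With the mean of a gene's probes it was 4, and the count over all genes is not given for that fit. The import count ran from 2 to 5 when leaving out each array, with 5 without control 1 (4598 of 25717 probes). It was 4 without KI-treated 6 (2579), control 3 (3292) or control 5 (3469). The causes were not tested.

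Replicate numbers are shared by 6 pairs but did not pair the arrays: correlations of same-numbered deviations ran from -0.109 to 0.0714, and 0 of 6 KI-treated arrays were most like the control of their number. With the replicate block, which leaves out control 7, 2356 probes and 2 import genes were past the unadjusted limit, against 3271 and 2 in the main fit. Leaving out control 7 without the block gave 2765 and 2. After adjustment, 0 probes were called in each of these settings.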
